A study of Mus musculus with 4 samples.

Results

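The 9 genes examined here, Foxo1, Foxp1, Klf2, S1pr1, Ccr7, Tcf7, Lef1, Bach2 and Satb1, encode regulators and surface receptors that keep naive CD4+ T cells in a resting state and let them move through lymphoid organs. Open chromatin at these genes was measured by ATAC-seq, in which a transposase inserts sequencing adapters where DNA is accessible, and is described as peaks called from those insertions. Each gene's locus was its GENCODE record on mm10 with 50 kb on each side, and peaks of the 4 libraries that shared at least 1 base were merged into 1 region. The 9 loci held 395 of the 93679 merged regions of the series. Of these 395 regions, 26 lay within 1 kb of an annotated start site of the gene itself (promoter regions), 17 lay within 1 kb of a start site of another gene, and 352 lay farther away (distal regions).

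The cells came from spleens of 7-week-old male wild-type C57BL/6 mice and were sorted as naive CD4+ T cells, which were CD25- and CD44 low. For 48 h they were activated by 5 µg/ml of anti-CD3 bound to the plate and by anti-CD28 at 1 µg/ml. All 4 cultures also received 10 ng/ml of IL-2 together with TGF-β1 at 5 ng/ml, which polarize cells toward induced regulatory T cells (iTregs). PBS was added to 2 of them (iTreg+PBS replicates 1 and 2) and 15 ng/ml of IL-4 to the other 2 (iTreg+IL-4 replicates 1 and 2). The replicates are described as biologically independent pooled samples, and what was pooled and in what number is not given. No library of naive, unactivated cells was used here, so the comparison is between activated cultures and not between naive and activated cells.

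FOXO1 is a forkhead transcription factor that is kept in the nucleus of resting T cells and sustains KLF2, CCR7 and the IL-7 receptor, and antigen receptor signalling drives it out of the nucleus. KLF2 in turn sustains S1PR1, the receptor with which T cells leave lymphoid organs, while CCR7 guides them into lymph nodes. TCF-1 (encoded by Tcf7) and LEF1 are HMG-box factors of naive and memory-like T cells, BACH2 is a repressor that limits effector programmes and can occupy AP-1 sites, SATB1 organizes chromatin in developing and naive T cells, and FOXP1 is needed for quiescence.

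The libraries held 56645 to 78670 peaks, fewest in iTreg+PBS replicate 2, and the number of reads behind them is unknown. Each peak carries the authors' −log10 q-value and pileup height. Strength is given here as a rank, the percentage of peaks in the same library with a higher −log10 q, so that a low rank marks a strong region. Among markers of the cells in the cultures, promoter regions were called in all 4 libraries for 5 of 5 T cell genes (Cd3e, Cd3d, Cd4, Lck and Cd28), and for none of 13 B cell, myeloid, NK, erythroid and non-immune genes, of which Ms4a1 and Itgam were called in 3 libraries. The region at Cd4 itself was weak, with ranks of 66.3% and 88% in iTreg+PBS and 65.5% and 72.3% in iTreg+IL-4. Of the 2 genes of the CD8 co-receptor, Cd8b1 was called in all 4 libraries and Cd8a in the replicates numbered 1 of both conditions. In a bulk population, fewer cells with an open region and less accessibility in each cell cannot be told apart.

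Every one of the 9 genes kept an accessible promoter with and without IL-4. A promoter region was called in all 4 libraries at 9 of 9 genes, against 60.1% of the 21938 protein-coding genes. A gene counted if any of its annotated start sites had such a region, and the coding genes were not matched for the number of start sites. Foxp1 has 22 start sites and Satb1 12, while Foxo1, Klf2, Ccr7 and S1pr1 have 1 each. Of the 26 promoter regions, 20 were called in all 4 libraries (shared regions). The other 6 were at Satb1 (4 regions), Tcf7 (1) and Lef1 (1), and 5 of them were called in a single library. That of Lef1 lies 158 bases from the start site at the gene's own 5′ end (chr3:131110142-131110313) and had a peak, with a rank of 82.5%, only in replicate 2 of iTreg+IL-4, so that the shared promoter regions of Lef1 lay inside the gene. The only one of the 6 called in more than 1 library, 846 bases upstream of the 5′ end of Satb1 (chr17:51833919-51834353), was called in every library but iTreg+PBS replicate 2, with weak ranks of 70.4%, 79.6% and 76.7%. No promoter region was called in both replicates of one condition while missing from both of the other.

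The promoters differed widely in strength. Klf2, a zinc-finger regulator of T cell trafficking, had the strongest. Its promoter region (chr8:72318565-72319711) spans the start site, with its centre in a coding exon, and ranked at 0.908% and 1.99% in iTreg+PBS and at 0.99% and 1.44% in iTreg+IL-4. Only 7.08% of the 13185 coding genes with a shared promoter region had a better mean rank. The 221 bases upstream of its GENCODE start, taken from the RefSeq promoter table (GRCm38.p6, chr8:72318812-72319032, forward strand), are shown because they lie in this region, and they hold 71.5% G and C and none of the motifs searched below.

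Klf2 promoter: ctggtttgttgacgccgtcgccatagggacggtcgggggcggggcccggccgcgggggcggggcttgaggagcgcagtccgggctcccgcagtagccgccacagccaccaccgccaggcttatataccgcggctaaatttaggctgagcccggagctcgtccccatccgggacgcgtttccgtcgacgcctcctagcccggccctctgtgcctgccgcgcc

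Ccr7, the lymph node homing receptor, came next (chr11:99154904-99155552), with ranks of 4.7% and 7.12% in iTreg+PBS and 5.05% and 5.45% in iTreg+IL-4. A group of 5 genes followed, and genes adjacent in this order had mean ranks that differed by less than the spread between libraries. Foxo1 (chr3:52267782-52268782) ranked at 14.4% and 10.8% without IL-4 and 12.3% and 11.2% with it. For Lef1 the best region had its centre 1513 bases into the gene and spans an alternative start site and one of Gm43352 (chr3:131111164-131112804), with ranks of 10.3% and 15.3% against 12% and 12.7%. Bach2 (chr4:32238342-32240129) ranked at 12.2% and 14.8% against 14.3% and 16.8%, and Satb1 (chr17:51832128-51833667) at 13.1% and 16.7% against 15.8% and 15.8%. At S1pr1 (chr3:115714567-115716460) the ranks were 14.3% and 19.3% against 15.4% and 17.9%. In all of these the conditions overlapped, and all had a mean rank weaker than the median of coding genes (10.5%).

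Foxp1 and Tcf7 had the weakest promoter regions. The best region of Foxp1, at an internal start site 426700 bases from its 5′ end (chr6:99095144-99096898), ranked at 24% and 26.8% in iTreg+PBS and 18.7% and 21.4% in iTreg+IL-4, so that both IL-4 libraries ranked above both PBS libraries. The region at the 5′ end of Foxp1 (chr6:99521235-99523611) was weaker, with ranks of 51.5% and 44.1% against 52.2% and 37.9%. The region upstream of Tcf7 (chr11:52283170-52283905) ranked at 32.5% and 26.4% against 42.7% and 31.3%, and 84.3% of coding genes with a shared promoter region had a better one. The conditions overlapped at Tcf7 and at the 5′ end of Foxp1.

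**Figure D1:**
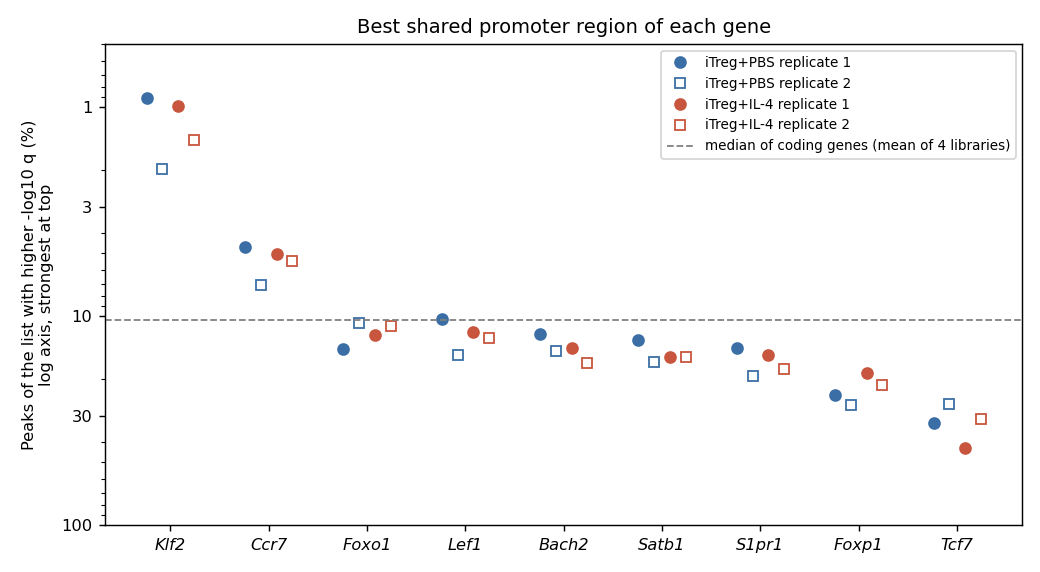
Rank of the best shared promoter region of each of the 9 genes in each library, as the percentage of peaks in that library with a higher −log10 q (log axis, strong regions at the top). Blue symbols are the iTreg+PBS and red symbols the iTreg+IL-4 libraries (filled circle, replicate 1, open square, replicate 2), and the dashed line is the median of coding genes (10.5%). Klf2 and Ccr7 lie above the line in all 4 libraries, Foxp1 and Tcf7 lie lowest, and at 8 of 9 genes red and blue symbols overlap.

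Across the 20 shared promoter regions, 2 ranked higher in both iTreg+IL-4 libraries than in both iTreg+PBS libraries, 2 ranked lower, and 16 overlapped. This is 10% each, against 19.8% (higher) and 5.4% (lower) of the 16966 shared promoter regions of the genome. The 2 that ranked higher were the Foxp1 region above and a region at an internal start site of Satb1 (chr17:51812420-51814707, ranks of 47.7% and 53.8% against 35.9% and 42.6%). The 2 that ranked lower lay in Tcf7 just inside its 5′ end (chr11:52282225-52282929, 57.7% and 55% against 67.5% and 77.1%) and in the first part of Lef1 (chr3:131113119-131113408, 51.5% and 58.5% against 75.5% and 74.5%). Both of the latter were secondary regions, and the best promoter regions of Tcf7 and Lef1 overlapped between conditions. The median rank of the 20 regions was 32.5% and 38.7% in iTreg+PBS and 35.1% and 31.9% in iTreg+IL-4, a difference of -2.10 percentage points that did not exceed the variation between replicates (exact two-sided permutation test, p = 0.667, n = 2 per condition). With 2 libraries against 2, no p below 0.333 can be reached in this or any later comparison. Without iTreg+PBS replicate 2 the difference was 1.66, and it stayed negative without any other library. When ranks were taken only among the 47767 regions called in all 4 libraries, it was 2.15, and 3 regions ranked higher and 6 lower (15% and 30%, against 13% and 13.1% of shared promoter regions). The best promoter regions of Bach2, Satb1 and S1pr1 were among these 6.

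Distal regions were dense around all 9 genes. Counted per 100 kb of locus, Ccr7 had 20.7 distal regions called in all 4 libraries, and none of the 21938 coding genes had more. Klf2 (14.6), S1pr1 (14.3), Tcf7 (12.2) and Lef1 (11.2) followed, and Bach2 (7.82), Foxo1 (7.03), Foxp1 (6.31) and Satb1 (6.09) had fewer. The median of coding genes was 1.54 and their 90th percentile 4.89, so that each of the 9 loci was above the 90th percentile. Neighbouring genes share distal regions under this count, since their loci overlap. Of the 352 distal regions at the 9 loci, 197 (56%) were called in all 4 libraries, against 43.7% of the 70526 distal regions of the genome.

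**Figure D2:**
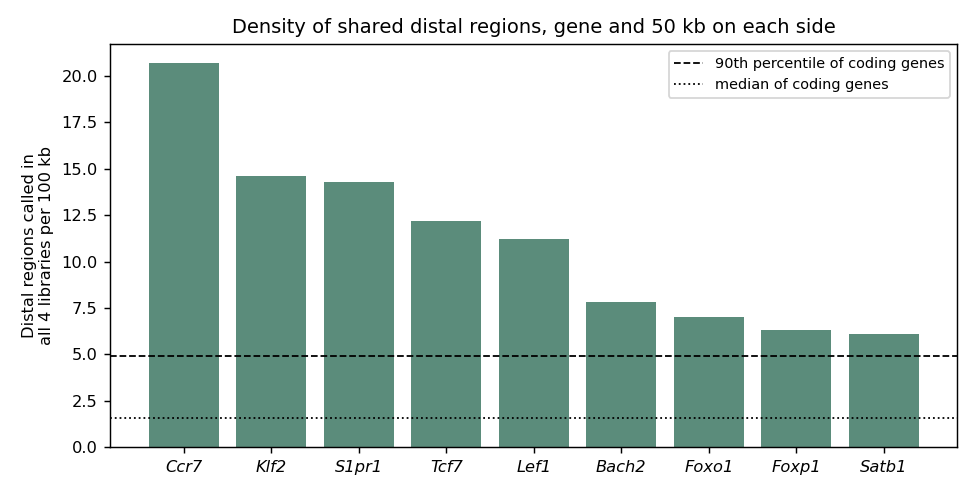
Number of distal regions called in all 4 libraries per 100 kb of locus (the gene and 50 kb on each side) for the 9 genes. The dotted and dashed lines are the median (1.54) and the 90th percentile (4.89) of coding genes, and every bar is above both, from 6.09 at Satb1 to 20.7 at Ccr7.

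Where these regions lay followed the length of the gene, which also sets how much of a locus is gene, as flanks were fixed at 50 kb. The gene made up 597384 of the 697384 bases of the locus at Foxp1 and 2624 of 102624 at Klf2. In Foxp1, the longest at 597384 bases, 91 of 96 distal regions lay inside the gene, and in Bach2 63 of 71. At the short genes Klf2, Ccr7 and S1pr1 most lay outside, with 18 of 18, 23 of 27 and 21 of 23 upstream or downstream. In total, 217 distal regions had their centre in an intron, 13 in an exon, 59 upstream and 63 downstream of the gene. Regions called in all 4 libraries had a median length of 625 bases, and those called in 1 library of 200 bases. A merged region spans all of its peaks, so each further library can only lengthen it by construction.

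**Figure D3:**
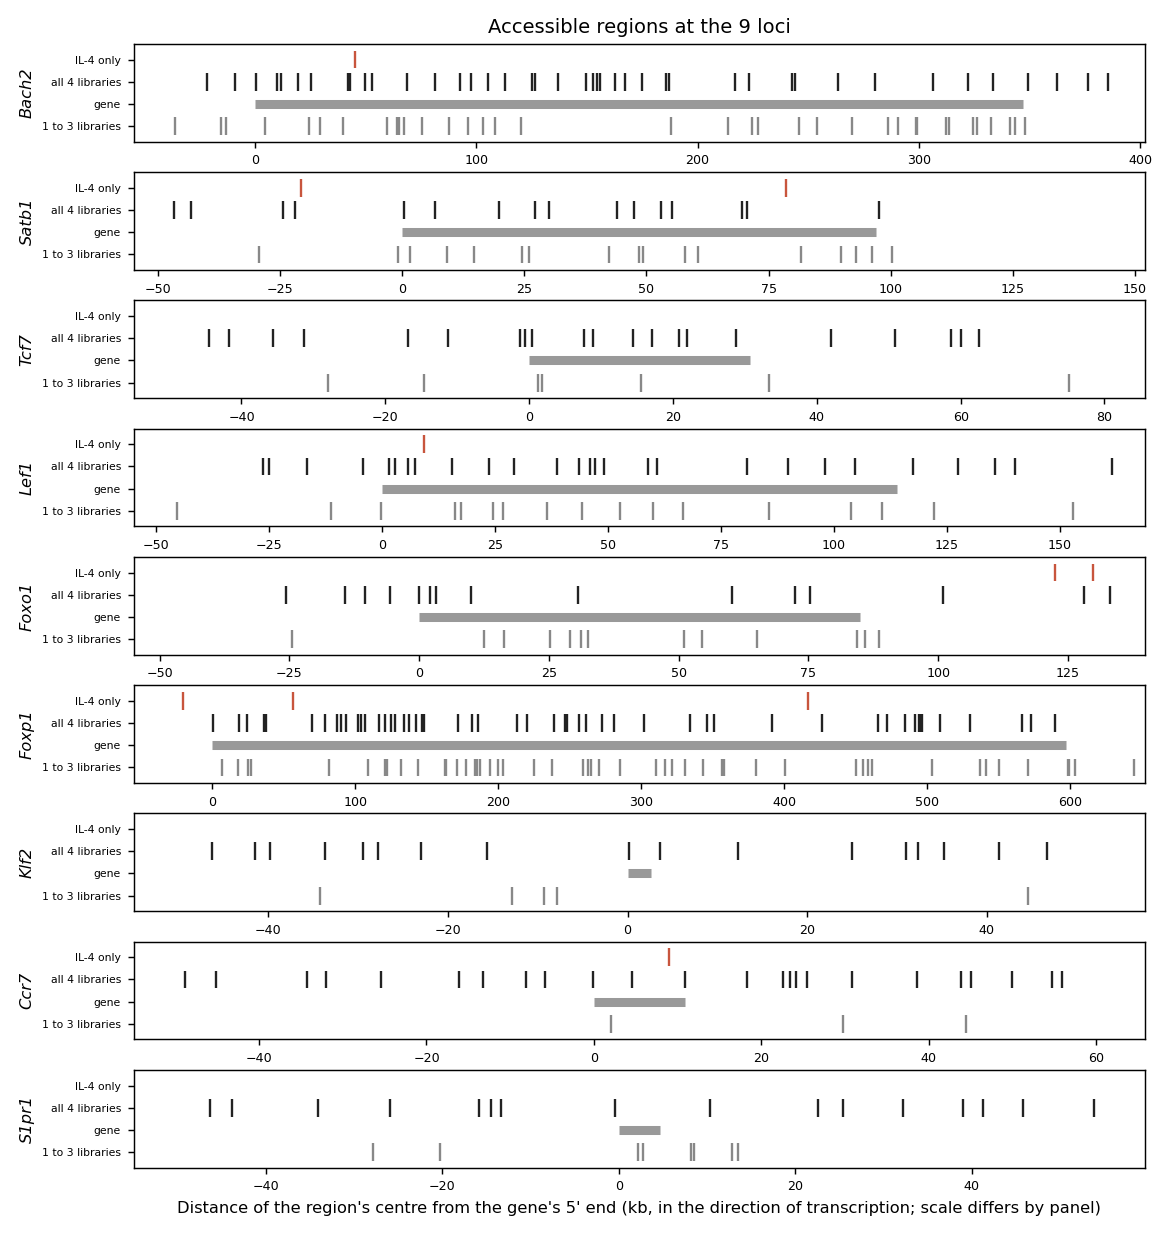
Positions of the 395 merged regions by distance from the 5′ end of each gene in kb (the scale differs between panels), with the gene as a grey bar. Black marks are regions called in all 4 libraries, red marks those called only with IL-4 (in both replicates), and grey marks all other regions. Red marks are present at 6 of the 9 loci and absent at Klf2, Tcf7 and S1pr1.

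Regions called in only one condition were few and weak by −log10 q. At the 9 loci, 10 regions had a peak in iTreg+IL-4 replicates 1 and 2 but in no iTreg+PBS library (called only with IL-4), and 0 showed the opposite pattern. All 10 were distal, 2.84% of the 352 distal regions, against 3.01% of distal regions genome-wide, and 2.53% of all 395, against 2.6% of all regions. For the opposite pattern, the genome-wide share was 0.699% of all regions and 0.798% of distal regions. Hence the share called only with IL-4 at these genes was close to that of the genome. These counts depended on which libraries were compared, since leaving out 1 library loosens the pattern: 43 regions were called only with IL-4 without iTreg+PBS replicate 1, 30 without iTreg+IL-4 replicate 1 and 40 without iTreg+IL-4 replicate 2, and the opposite pattern held 10, 26, 4 and 2 regions without iTreg+PBS replicate 1, iTreg+PBS replicate 2, iTreg+IL-4 replicate 1 and iTreg+IL-4 replicate 2.

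The 10 regions ranked between 53.5% and 96.2% in the libraries that had them, and their median length was 354.5 bases. Lef1 held the strongest, in an intron 9179 bases from the 5′ end (chr3:131119474-131119827), with ranks of 53.5% and 58.1%. Next were 2 regions of Foxo1 and Foxp1, one 44960 bases downstream of Foxo1 (chr3:52398043-52398319, 63.8% and 68.3%) and one in an intron of Foxp1 (chr6:99105872-99106285, 63.4% and 69.3%). The region of Bach2 lay in an intron 45183 bases from the 5′ end (chr4:32283852-32284123, 77.8% and 90.5%). At Satb1, one lay 20784 bases upstream (chr17:51853936-51854212, 84.5% and 87.1%) and one in an intron (chr17:51754358-51754909, 92.3% and 95.2%). Ccr7 had one within the gene (chr11:99145803-99146273, 59.1% and 82.4%). A second region downstream of Foxo1 (chr3:52390448-52391200) and a pair at Foxp1 (chr6:99465980-99466233 and chr6:99542742-99543096) ranked at 69.6% and 96.2%, 82.6% and 93.8%, and 95% and 96.2%. By −log10 q all of these peaks thus lay in the weaker part of their list. By peak height, those of Ccr7 (25.7% and 30.5%), Lef1 (37.2% and 38%), Bach2 (43.2% and 46%) and one downstream of Foxo1 (chr3:52398043-52398319, 40.4% and 42.2%) lay in the stronger part.

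Sequences of 3 of these regions are shown as the 200 bases around the centre (GRCm38, forward strand), because the AP-1/BACH motif, TGANTCA, was found in exactly these 3 of the 10. Capitals mark matches to any motif searched, which at Bach2 included the RUNX letters TGTGGT.

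Bach2 intron, chr4:32283887-32284086: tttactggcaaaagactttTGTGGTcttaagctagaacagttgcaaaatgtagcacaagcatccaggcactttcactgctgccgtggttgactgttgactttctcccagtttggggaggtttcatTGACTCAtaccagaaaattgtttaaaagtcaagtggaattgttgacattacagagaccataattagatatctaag
Foxp1 intron, chr6:99105978-99106177: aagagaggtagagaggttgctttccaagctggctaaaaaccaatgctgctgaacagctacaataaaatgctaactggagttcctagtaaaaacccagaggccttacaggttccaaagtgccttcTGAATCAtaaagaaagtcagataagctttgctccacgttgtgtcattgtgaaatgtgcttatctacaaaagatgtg
Satb1 upstream, chr17:51853974-51854173: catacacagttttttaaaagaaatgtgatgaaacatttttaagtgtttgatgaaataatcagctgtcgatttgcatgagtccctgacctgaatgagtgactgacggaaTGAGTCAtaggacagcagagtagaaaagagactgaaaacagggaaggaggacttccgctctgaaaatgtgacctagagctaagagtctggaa

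The motif was present in 15% of all distal regions and 12.5% of those called only with IL-4 genome-wide, so 3 of 10 is a description of few regions. The STAT6-type palindrome (TTC and GAA with 4 bases between them), searched because STAT6 transmits the IL-4 signal, was found in 0 of the 10, against 13.4% of the 2119 distal regions called only with IL-4 and 6.45% of all distal regions on the assembled chromosomes.

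The number of regions and the bases they covered overlapped between the conditions in the full lists. At the 9 loci, 318 and 254 regions were called in iTreg+PBS replicates 1 and 2, and 334 and 303 in those with IL-4. Means were 286 ± 45.3 (SD, n = 2) and 318.5 ± 21.9 (SD, n = 2), with overlap between the conditions (difference of 32.5, exact two-sided permutation test, p = 0.667). As a share of all regions called in the library, the loci took 0.418%, 0.461%, 0.43% and 0.455% in the same order, so that the shares of the conditions overlapped. The bases inside peaks were 179717 and 139818 in iTreg+PBS and 187829 and 172163 in iTreg+IL-4 (difference of 20230 bases, exact two-sided permutation test, p = 0.667). With each list cut to its 56645 strongest peaks, the bases did not overlap and were higher with IL-4 by 11960 (exact two-sided permutation test, p = 0.333, the smallest possible). Values of other loci under this cut are not given here. In the full lists, the differences in regions and bases moved with each library left out: they were 0 regions and 279 bases without iTreg+PBS replicate 2, 65 and 40180 without iTreg+PBS replicate 1, 17.5 and 12400 without iTreg+IL-4 replicate 1, and 49 and 28060 without iTreg+IL-4 replicate 2. Of the 395 regions, 33 were missing in iTreg+PBS replicate 2 alone, 21 were called only in the replicates numbered 1 and 1 only in the replicates numbered 2.

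Single genes varied in the same way. Foxp1 had 78 and 59 regions in iTreg+PBS and 82 and 78 in iTreg+IL-4, and Bach2 had 62 and 49 against 67 and 59. Satb1 had 25 and 19 against 29 and 25. The counts at S1pr1 (18 and 19 against 20 and 17), Klf2 (21 and 17 against 20 and 19), Ccr7 (27 and 25 against 27 and 26) and Tcf7 (25 and 23 against 24 and 23) were nearly equal, and overlapped. Lef1 had 39 and 27 against 37 and 34, and Foxo1 23 and 16 against 28 and 22. Covered bases did not overlap between the conditions at Satb1 (13412 and 10901 against 14988 and 15025) and Foxp1 (40824 and 31080 against 42741 and 42182), both higher with IL-4 (exact two-sided permutation test, p = 0.333 each, the smallest possible, unadjusted over 9 loci). Of the 858 coding genes with at least 10 shared distal regions in their locus, which include these 9, covered bases were higher with IL-4 without overlap at 9.09% and lower at 0%.

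The strongest distal region of the 9 loci belonged to Tcf7. It lies 16795 bases upstream of the gene (chr11:52299466-52300152) and ranked at 0.4% and 2.38% in iTreg+PBS and 0.311% and 0.993% in iTreg+IL-4, well above the promoter of the same gene. Strong regions also lay in introns of Foxp1 (chr6:99056845-99057648, 1.62% and 5.48% against 1.43% and 2.8%), Bach2 (chr4:32290926-32291992, 2.91% and 5.92% against 2.48% and 4.87%) and Lef1 (chr3:131207794-131209224, 3.83% and 7.44% against 2.91% and 5.21%). Ccr7 had one 16117 bases upstream (chr11:99170652-99171736, 3.63% and 7.01% against 3.7% and 4.49%). That of the Klf2 locus lies 22316 bases downstream of Klf2 within Eps15l1 (chr8:72343528-72344416, 4.12% and 9.49% against 3.21% and 6.5%), and distance alone does not say which gene it belongs to. Those of S1pr1 (chr3:115682393-115683293, 10.7% and 16.4% against 13.8% and 13.1%), Foxo1 (chr3:52396066-52396791, 14% and 16.5% against 17.3% and 18.7%) and Satb1 (chr17:51763381-51764036, 17.7% and 24.2% against 15.5% and 17%) were weaker. The conditions overlapped at 7 of these 9 regions. That of Satb1 ranked higher with IL-4 in both libraries, and that of Foxo1 ranked lower, where 19.7% of shared distal regions genome-wide ranked higher and 5.06% lower.

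The windows of Tcf7 and S1pr1 are shown (GRCm38, forward strand), the first as the strongest distal region and the second because it holds matches to both the FOXO motif, GTAAACA, and the TCF/LEF motif, CTTTGA, which stands on the reverse strand. The match at Tcf7 is to the AP-1/BACH motif.

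Tcf7 upstream, chr11:52299709-52299908: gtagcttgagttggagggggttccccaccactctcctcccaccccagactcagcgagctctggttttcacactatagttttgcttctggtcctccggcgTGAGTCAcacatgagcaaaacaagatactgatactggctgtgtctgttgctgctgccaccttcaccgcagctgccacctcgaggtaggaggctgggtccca
S1pr1 downstream, chr3:115682743-115682942: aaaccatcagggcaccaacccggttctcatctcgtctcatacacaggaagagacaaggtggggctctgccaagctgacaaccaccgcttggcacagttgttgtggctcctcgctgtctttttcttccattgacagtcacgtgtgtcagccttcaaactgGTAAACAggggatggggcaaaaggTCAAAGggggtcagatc

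Among the 197 shared distal regions, 53 (26.9%) ranked higher in both iTreg+IL-4 than in both iTreg+PBS libraries, 6 (3.05%) ranked lower and 138 overlapped. Of all 30801 shared distal regions of the genome, 19.7% ranked higher and 5.06% lower, so that higher ranks outnumbered lower ones in the whole series too. All 9 loci had at least 1 region that ranked higher, with the most at Foxp1 (12 of 44), Bach2 (11 of 35) and Satb1 (8 of 12), and 4 had regions that ranked lower (Foxo1, Ccr7, Foxp1 and S1pr1). When ranks were taken among the regions called in all 4 libraries, every locus still had a region that ranked higher, and every locus but Satb1 had at least 1 that ranked lower, with 6 at Bach2 and 5 each at Foxo1, Foxp1 and S1pr1. The median rank of the 197 regions was 31.5% and 42.5% in iTreg+PBS and 31.1% and 35.8% in iTreg+IL-4, a difference of -3.53 percentage points with overlap between the conditions (exact two-sided permutation test, p = 0.667, n = 2 per condition). In the genome as a whole, the medians of shared distal regions were 37.9%, 51.4%, 37.2% and 42.9% in the same order, so the pooled median of the 9 loci was the stronger in every library. Foxp1 and Bach2 held 44 and 35 of the 197 regions, and the loci differed: the medians of Satb1 and Lef1, given below, were weaker than those of the genome in all 4 libraries, and that of Foxo1 in all but iTreg+IL-4 replicate 1.

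The direction of the difference in medians depended on the scale. A rank among all peaks of a library moves with the number of weak peaks called there, and iTreg+PBS replicate 2 had the fewest. Ranked among the regions called in all 4 libraries, 39 of the 197 ranked higher (19.8%, against 15.1% genome-wide) and 30 lower (15.2%, against 12.5%), and the difference in medians was 0.388. The median of the differences of single regions stayed negative, at -0.938 on this scale and -3.32 among all peaks. Over all 230 shared regions, the count changed from 58 higher and 8 lower to 46 higher and 37 lower, and 32 and 7 of them were called the same way on both scales. Without iTreg+PBS replicate 2 the difference in medians among all peaks was 1.88, and without iTreg+PBS replicate 1 it was -10.2. The same omissions gave 81 regions higher and 84 lower, and 185 higher and 18 lower. Omission of iTreg+IL-4 replicate 1 gave 83 and 29, and of iTreg+IL-4 replicate 2 122 and 26.

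Among shared distal regions, one each at Bach2, Satb1 and Tcf7 had the widest gaps between the nearest ranks of the conditions for IL-4, and one each at Foxo1, Foxp1 and Ccr7 for PBS. In an intron of Bach2, 68572 bases from the 5′ end (chr4:32307162-32307590), ranks were 72.4% and 79.8% without IL-4 and 46.2% and 56.4% with it. A region 441 bases downstream of Satb1 (chr17:51735471-51736021) ranked at 63.7% and 88.4% against 48.2% and 49.3%. The third lies 11280 bases downstream of Tcf7 within Skp1a (chr11:52240786-52241397), with 88.1% and 88.3% against 75.2% and 63.1%. These are regions of middling or weak rank that were stronger in both IL-4 libraries, on both scales.

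Ranks were weaker with IL-4 in an intron of Foxo1, 10023 bases from the 5′ end (chr3:52278149-52278570, 74.2% and 67.7% against 84.1% and 87.8%). The same held in an intron of Foxp1 (chr6:99301835-99303279, 32.1% and 44.5% against 47.7% and 58.7%) and 43849 bases downstream of Ccr7 (chr11:99100141-99100553, 39.4% and 41.9% against 44.1% and 53%). Each of the 3 also ranked lower with IL-4 among the regions called in all 4 libraries. The 6 windows are shown (GRCm38, forward strand, matches in capitals), as those of the 3 shared distal regions with the widest gap in each direction. Few distal regions ranked lower, so that the gaps at Foxp1 and Ccr7 (3.18 and 2.14 percentage points) were narrower than those of many regions that ranked higher. A region 5735 bases downstream of S1pr1 had a gap equal to that at Ccr7 in the digits given.

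Bach2 intron, higher with IL-4, chr4:32307276-32307475: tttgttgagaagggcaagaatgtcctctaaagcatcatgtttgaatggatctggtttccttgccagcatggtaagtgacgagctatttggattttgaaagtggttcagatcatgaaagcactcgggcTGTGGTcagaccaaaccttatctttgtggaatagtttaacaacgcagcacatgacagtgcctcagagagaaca
Satb1 downstream, higher with IL-4, chr17:51735646-51735845: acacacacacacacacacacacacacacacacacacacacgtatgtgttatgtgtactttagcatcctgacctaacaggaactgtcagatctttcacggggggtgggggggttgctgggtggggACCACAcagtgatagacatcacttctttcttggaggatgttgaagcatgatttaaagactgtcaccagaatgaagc
Tcf7 downstream, higher with IL-4, chr11:52240991-52241190: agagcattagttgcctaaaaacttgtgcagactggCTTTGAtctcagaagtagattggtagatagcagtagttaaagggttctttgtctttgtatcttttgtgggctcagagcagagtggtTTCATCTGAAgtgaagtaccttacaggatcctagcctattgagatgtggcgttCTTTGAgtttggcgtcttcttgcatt
Foxo1 intron, lower with IL-4, chr3:52278259-52278458: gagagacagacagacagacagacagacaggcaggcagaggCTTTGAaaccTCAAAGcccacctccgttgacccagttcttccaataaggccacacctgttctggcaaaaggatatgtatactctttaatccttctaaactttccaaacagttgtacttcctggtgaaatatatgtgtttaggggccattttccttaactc
Foxp1 intron, lower with IL-4, chr6:99302457-99302656: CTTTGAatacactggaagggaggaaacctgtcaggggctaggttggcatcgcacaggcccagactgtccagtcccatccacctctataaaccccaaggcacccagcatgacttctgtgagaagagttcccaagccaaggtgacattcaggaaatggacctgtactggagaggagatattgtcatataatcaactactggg
Ccr7 downstream, lower with IL-4, chr11:99100247-99100446: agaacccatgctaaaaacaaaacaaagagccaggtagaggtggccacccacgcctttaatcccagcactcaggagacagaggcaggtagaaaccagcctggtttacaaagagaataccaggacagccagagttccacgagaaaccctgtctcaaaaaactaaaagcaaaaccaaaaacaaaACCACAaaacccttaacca

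The Bach2, Satb1 and Ccr7 windows hold the RUNX letters, on the forward strand at Bach2 and the reverse strand at Satb1 and Ccr7. The Foxo1 and Foxp1 windows hold CTTTGA, in Foxo1 on both strands, and the Tcf7 window holds it at 2 places beside the only STAT6-type palindrome of the 6 windows. A TCF/LEF match was thus present on both sides of the comparison.

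The widest difference between conditions was at Satb1, which encodes a chromatin organizer. Its 12 shared distal regions had a median rank of 66.9% and 76.9% in iTreg+PBS and of 46.6% and 53.5% in iTreg+IL-4. Both IL-4 libraries were therefore above both PBS libraries, with a difference of -21.9 percentage points (exact two-sided permutation test, p = 0.333, the smallest possible, unadjusted over 9 loci). Region by region, 8 of 12 ranked higher with IL-4 and 0 lower, with a median difference of -10. They included the strongest, in an intron 69582 bases from the 5′ end, and one 46673 bases upstream (chr17:51879139-51880787), with 21.7% and 21.5% against 17.7% and 18.3%. Ranked among the regions called in all 4 libraries, the conditions overlapped at the latter (34.9% and 25.4% against 29.1% and 25.9%). Wider gaps were at weaker regions, for example in an intron 30071 bases from the 5′ end (chr17:51803009-51803430), with 72.6% and 79.7% against 43.5% and 66%, and 24319 bases upstream (chr17:51857317-51857902), with 87.6% and 96.1% against 77.7% and 60.2%. At the 5′ promoter, ranks overlapped.

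**Figure D4:**
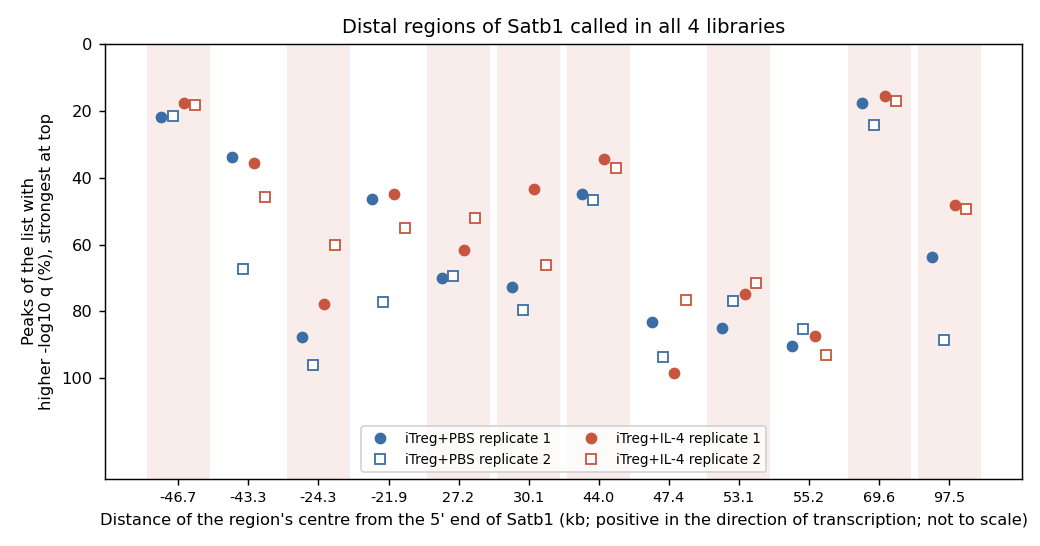
Rank of each of the 12 distal regions of Satb1 called in all 4 libraries, ordered by distance from the 5′ end in kb (strong regions at the top). Blue symbols are iTreg+PBS and red symbols iTreg+IL-4 libraries, and shading marks the 8 regions in which both red symbols lie above both blue ones.

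For scale, 858 coding genes had at least 10 shared distal regions in their locus, and in 14.2% of them the medians of both IL-4 libraries were above those of both PBS libraries, while in 0.233% they were below. Satb1 and Klf2 were 2 of the 9 genes in the first class and 0 of 9 were in the second. The median difference over the 858 loci was -3.96, and 1 locus had a more negative difference than Satb1. By the median of the differences of single regions, 6 did. On the scale of regions called in all 4 libraries, the medians at Satb1 were 89.4% and 86.2% against 71.9% and 72.6%, a difference of -15.6 (3 of 858 loci were more negative), and 4 of the 12 regions ranked higher. On that scale 12.9% of the 858 loci were above and 12.9% below without overlap. By the medians of the libraries, Klf2 then overlapped, Lef1 became higher and Foxp1 lower, so that Satb1 was the only gene of the 9 above on both scales. At Foxp1 the median of the differences of single regions was -1.44 on that scale, which is the other direction. The difference at Satb1 was -11.7 without iTreg+PBS replicate 2 and -11.7 with flanks of 100 kb, and -9.87 in the upper 50% of each list, where 3 of its regions were left. It was -9.40 with lists of equal length and -10.1 where a peak had to cover at least 50% of the region. With flanks of 100 kb the medians of the conditions overlapped (exact two-sided permutation test, p = 0.667). Satb1 was chosen for this account once the values were known, and loci of neighbouring genes share regions.

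The other loci gave smaller differences. The medians were 22% and 25.2% against 19% and 20.8% at Klf2 (difference of -3.71), 43.7% and 55.3% against 40.4% and 45.1% at Lef1 (-6.77), and 46% and 57.3% against 36.6% and 52.5% at Foxo1 (-7.11). At Bach2 they were 31.4% and 43.8% against 31.5% and 33.5% (-5.14), and at Ccr7 24.4% and 36.9% against 23% and 32% (-3.14). Tcf7 (38.2% and 45.6% against 42.7% and 40.4%), Foxp1 (31.1% and 37.6% against 30.9% and 37.1%) and S1pr1 (24.5% and 35.2% against 25.2% and 33.1%) differed by less than 1 percentage point on this scale. Apart from Klf2, the conditions overlapped at all of these. Among the regions called in all 4 libraries, the differences of medians turned positive, that is a weaker median with IL-4, at Tcf7 (4.96), Foxp1 (4.19, without overlap), S1pr1 (3.56) and Ccr7 (0.106), and were -2.89 at Lef1 (without overlap), -3.35 at Foxo1, -2.29 at Klf2 and -1.65 at Bach2. The median of the differences of single regions was 2.36 at Tcf7, 2.33 at S1pr1 and 0.198 at Ccr7, but -1.44 at Foxp1. There 7 distal regions ranked higher with IL-4 and 5 lower. In all 4 libraries the distal regions of Klf2 had the strongest median rank of the 9 genes.

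**Figure D5:**
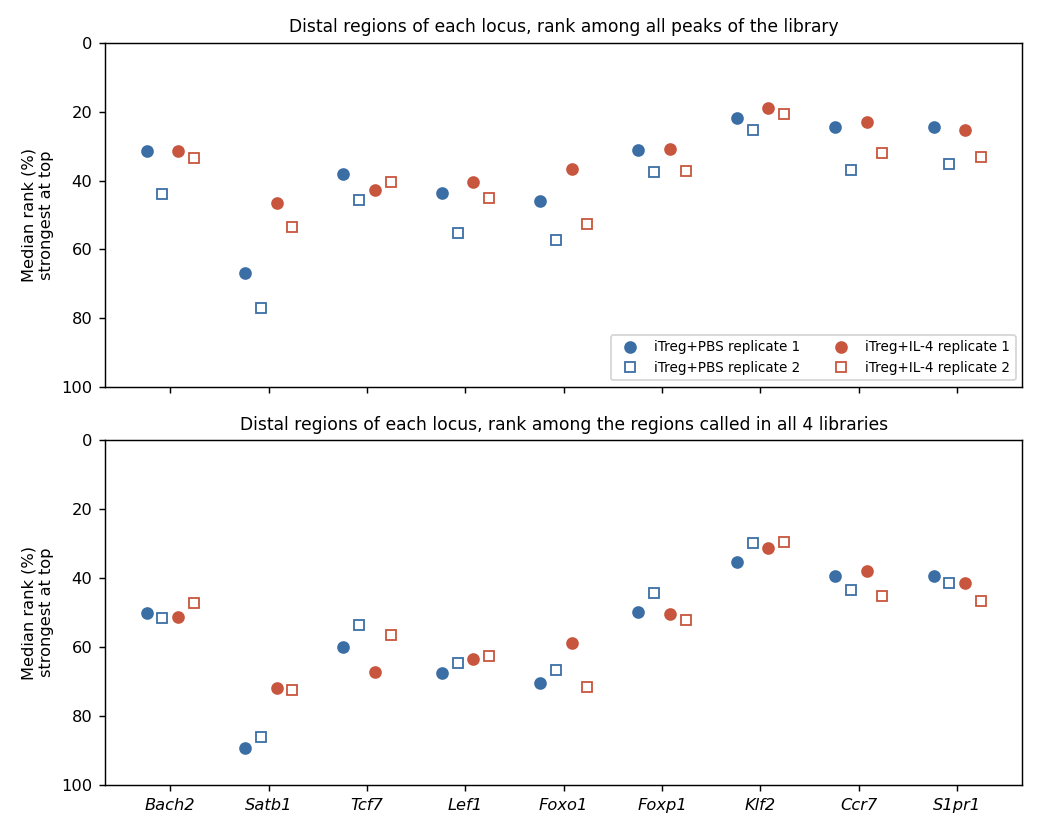
Median rank of the shared distal regions of each gene in each library (strong at the top), with ranks among all peaks of the library in the upper panel and among the regions called in all 4 libraries in the lower panel. Blue symbols are iTreg+PBS and red symbols iTreg+IL-4 libraries. At Satb1 both red symbols lie above both blue ones in both panels (46.6% and 53.5% against 66.9% and 76.9% in the upper one).

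Motifs of the factors themselves were counted on both strands of a 200-base window at each region's centre. CTTTGA (TCF/LEF) was present in 42 of the 197 shared distal regions (21.3%), against 16.1% of all shared distal regions, and GTAAACA (FOXO) in 13 (6.6%, against 2.89%). TGANTCA (AP-1/BACH) was present in 37 (18.8%, against 14%). TGTGGT (RUNX) was present in 43 (21.8%, against 24.5%) and the STAT6-type palindrome in 12 (6.09%, against 6.22%). The KLF letters GGGTGTGG and GGGCGTGG, the first of which can share bases with TGTGGT, were found in 6 and 2 regions (3.05% and 1.02%, against 2.85% and 1.2%). These are counts of letters in regions of 9 loci and were not tested. In the upstream bases of 17 RefSeq promoters of 7 of the genes, CTTTGA was found in 3, GGGTGTGG in 1, the STAT6-type palindrome in 1 and the others in 0, where 13.8%, 3.2% and 5.85% of all 32851 promoters held the first 3. Of those not found, the RUNX letters were in 14% of all promoters, the AP-1/BACH letters in 6.75%, the second KLF letters in 4.79% and the FOXO letters in 3.17%.

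A further list of 12 genes of T cell quiescence had accessible promoters throughout. Il7r, Foxo3, Klf3, Ets1, Elf4, Btg1, Btg2, Tob1, Slfn2, Tsc1, Pik3ip1 and Cdkn1b all had a promoter region in all 4 libraries (12 of 12, against 60.1% of coding genes), with a median of best mean ranks of 4.62% against 14.5% for the 9 genes. Of these 12, 1 ranked higher with IL-4 and 0 lower, against 19.8% and 5.4% of shared promoter regions genome-wide. That one was Tsc1, an inhibitor of mTOR signalling, and its ranks differed little (5.67% and 6.19% against 5.45% and 5.18%). The weakest of the list was Slfn2, a gene needed for T cell quiescence, with 24.2% and 23.5% in iTreg+PBS and 25.1% and 24.1% in iTreg+IL-4.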

How the data were processed

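ATAC-seq was performed on 2 iTreg+PBS and 2 iTreg+IL-4 libraries. The authors sequenced them on the BGISEQ-500, and per the submitters' processing notes used Bowtie2 2.2.5, MACS2 2.1.2, bedtools 2.16.2 and mm10. They deposited 1 peak list per library without pooling replicates, with a position, what was taken to be the −log10 q-value, and a height of the pileup signal. The lists carry no column names, so these meanings were inferred from the values. Neither value is scaled between libraries, the sources used here do not name a correction for the transposase offset or a duplicate filter, and the depth is unknown. Intervals for a peak call were therefore not given, and heights were not compared between libraries.

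Peaks were merged across the 4 lists (at least 1 shared base) with Python 3.11.15, numpy 2.4.6 and pandas 2.3.3. Loci and start sites came from GENCODE and sequences from GRCm38, whose chromosome lengths held every peak. Positions count from 1. Library values were compared by an exact two-sided permutation test, whose p-values measure only the spread between these libraries. The counting was tested on simulated lists. Named were the best promoter region of each gene, promoter regions called in 2 or 3 libraries, distal regions called in 1 condition, the best distal region of each gene, the 3 widest gaps in each direction, and genes of a 12-gene list whose calls differed (1 further gene is not reported here). The genes, lists and motifs were chosen with earlier results of these data known. Tsc1, Slfn2 and S1pr1's window were singled out after their values were seen. Alternatives kept the upper 50% or the 56645 strongest peaks of each list, used flanks of 10 or 100 kb, promoters of 0.5 or 2 kb, RefSeq records, a peak covering at least 50% of the region, ranks among shared regions or by height, a replicate block, or left out each library.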

Additional observations from a re-analysis of the deposited data

How the results depend on the processing

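A promoter region was called in all libraries at 9 of 9 genes under every alternative run. Omission of a library and a promoter of 2 kb loosen this criterion, so these runs say little about it. Of the 93 alternative values planned, 67 kept their direction or lay within 1.5 times of the count. The 67 include the replicate block values, which equal the main ones by construction. There were 6 regions called only with IL-4 with flanks of 10 kb, 17 where a peak had to cover at least 50% of the region, and from 15 to 43 when 1 library was left out. Regions called only without IL-4 numbered 0 under every other alternative and from 2 to 26 when 1 library was left out. Shared regions ranked higher and lower with IL-4 numbered 28 and 2 in the upper 50% of each list and 38 and 5 with flanks of 10 kb, with 37 lower when ranked among regions called in all 4 libraries, and from 81 to 185 and from 18 to 84 when 1 library was left out. The difference in median rank of promoter regions was 0.676 in the upper 50% of each list, 2.15 among regions called in all 4 libraries and between -4.88 and 1.66 when 1 library was left out (1.66 without iTreg+PBS replicate 2). That of distal regions was 0.388 among regions called in all 4 libraries and between -10.2 and 1.88 when 1 library was left out (1.88 without iTreg+PBS replicate 2). Regions and covered bases differed by 0 to 65 and by 279 to 40180. The cause of these shifts was not tested, other than that fewer peaks or libraries enter by construction.

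Alternatives for the distal regions of Satb1 were added after seeing the data. The difference of medians stayed negative in all of them, from -25.4 to -9.40, and the number of regions ranked higher was 3 to 11. With flanks of 100 kb the difference was -11.7 and the conditions overlapped (exact permutation test, p = 0.667).

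Replicates share numbers in the labels, which do not say that a number marks a pair, and with 2 pairs it cannot be told. Deviations of same-numbered libraries from their condition's mean rank correlated at 0.49 over the 230 shared regions of the loci, against 0.452 over all 47767 shared regions. When the number served as a replicate block, differences were the same by construction (32.5 regions, 20230 bases, -2.10 and -3.53 percentage points), with p of 0.5, 0.5, 1 and 0.5 by an exact sign-flip permutation test whose smallest p is 0.5. The unknown depth limits any statement that a region without a peak was closed.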

Other observations

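The loci also held 17 regions at start sites of neighbouring genes, of which 13 were called in all 4 libraries. The strongest was the promoter of Casp8ap2 beside Bach2, with ranks of 0.258% and 0.431% in iTreg+PBS and 0.17% and 0.283% in iTreg+IL-4, stronger than any promoter of the 9 genes. Of the 13, 3 ranked higher with IL-4 and 0 lower, against 19.8% and 5.4% of shared promoter regions genome-wide. Hadh, a mitochondrial fatty acid oxidation enzyme next to Lef1, had 11.3% and 14.2% against 8.97% and 10.1%. Bach2os, antisense to Bach2, had 52.6% and 70.8% against 47.9% and 48.4%, and Gm20705 within Foxp1 64.5% and 61% against 49.2% and 59.4%. Among regions called in all 4 libraries, 4 ranked higher and 1 lower, against 13% and 13.1%. The promoter of Bach2it1, a transcript within Bach2, ranked at 5.39% and 9.53% against 6.03% and 8.72%, above the promoter of Bach2 itself in every library.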
